A study of Mus musculus with 17 samples.

Results

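Messenger RNA was compared between leukaemic erythroid blasts that lack FANCA and preleukaemic erythroid blasts that carry it, in the deeper of 2 count tables that exist for the same mice. The comparison was chosen by its table, with the low counts of ribosomal and low-level genes in the other table already known, so the differences between the tables in those genes are given as descriptions. It holds 7 of the 17 samples of the series, 4 wild-type preleukaemic mice (preleukemic_138, preleukemic_445, preleukemic_451 and preleukemic_479) and 3 FANCA-null leukaemic mice (leukemic_26, leukemic_28 and leukemic_39). The same 7 mice also stand in another table, called the first table here, together with 3 FANCA-null preleukaemic mice. The deeper table is called the second table. Where values of all mice are listed, they follow this order of the names.

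All 7 mice carried the Spi1 transgene (TgSpi1), the controls included, on a DBA2JxFVB/N background. The preleukaemic mice had the genotype TgSpi1Fanca.wt, written TgSpi1FA+/+, and the leukaemic mice the genotype TgSpi1Fanca.ko, written TgSpi1FA-/-. The cells were primary erythroid blasts, grown with erythropoietin (EPO) and diluted before the RNA was taken, and each library came from 1 mouse. Genotype and stage changed together between these groups, so the loss of FANCA and the leukaemic stage cannot be told apart here. The paper's exome sequencing also reports a Kit mutation in leukemic_26 and an Nras mutation in leukemic_28 and leukemic_39. It reports a JAK2 mutation in preleukemic_445 and preleukemic_451, and Kit or Nras variants at low frequency in preleukemic_138, preleukemic_445 and preleukemic_479. The part of these mutations cannot be told apart from genotype and stage either. The age of the mice and the promoter of the transgene are not given in the sources used here. Libraries were made from polyA RNA with a strand-specific kit.

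FANCA is a subunit of the Fanconi anaemia core complex, which marks FANCI and FANCD2 with ubiquitin when a replication fork meets a DNA crosslink. Spi1 encodes PU.1, a transcription factor of myeloid and B cells, and its forced expression in erythroid precursors holds them as proliferating blasts that depend on EPO until later lesions release them. Ribosomal proteins are encoded by single active genes that have left many intronless copies, the processed pseudogenes, across the mouse genome, so a short read from such a gene often matches several places equally well.

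Library totals in the second table ran from 35497594 counts in leukemic_39 to 171572736 in leukemic_26, against 31955168 to 38217654 in the first table. Mouse leukemic_39 was the only library that was shallower in the second table, where it stood below its own 38161124 counts of the first table. The second table listed 31633 genes and the first 26029, with 24692 in both. Libraries of the same mouse in both tables had a Pearson correlation over genes of 0.959 to 0.977 over log2 CPM, where CPM scales each count to its library's total. Mouse preleukemic_445 of the second table was more like preleukemic_451 of the first table (0.966) than like itself (0.959), and preleukemic_479 of the second table was as much like preleukemic_445 of the first table (0.969) as like itself (0.968). In the first table preleukemic_445 and preleukemic_479 were nearly the same library, with a chi-square of 8.53 per degree of freedom over genes against 114 to 372 in the other pairs of a group, whereas in the second table that pair had 350 and the others 393 to 742. In preleukemic_445, 38 genes had at least 10 CPM in the second table and at most 0.1 CPM in the first, and 35 genes the reverse, where the other mice had 7 to 19 and 1 to 5. Syk, a tyrosine kinase of blood cells chosen here after its values were seen, had 10146 counts in preleukemic_445 of the second table and 0 in preleukemic_445 of the first.

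The tables differed most plainly in the genes of the cytosolic ribosome. How much of a coding sequence is shared with other genes was measured as the share of its 50-base words that also occur in a gene at another position. The coding sequence of Rpl4 (large subunit, chr9:64173375-64178666, plus strand) is shown from base 1 to base 240, because it holds both kinds of stretch. Bases inside a shared word are in capitals, and the sequence was read from the GENCODE M21 transcripts of GRCm38.
Rpl4: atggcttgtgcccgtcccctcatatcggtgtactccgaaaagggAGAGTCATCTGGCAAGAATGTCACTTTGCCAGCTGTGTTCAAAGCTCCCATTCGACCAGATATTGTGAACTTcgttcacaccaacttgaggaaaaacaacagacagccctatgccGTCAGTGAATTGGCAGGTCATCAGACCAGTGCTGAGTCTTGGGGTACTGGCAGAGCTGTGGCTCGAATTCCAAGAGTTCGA

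The 79 cytosolic ribosomal protein genes took 5.35%, 7.43%, 7.23% and 6.65% of the counts in preleukemic_138, preleukemic_445, preleukemic_451 and preleukemic_479 of the second table, and 6.47%, 5.16% and 9.94% in leukemic_26, leukemic_28 and leukemic_39. In the first table the same share was 1.72% ± 0.156 (SD, n = 7) and never exceeded 1.97%. The share rose in 7 of 7 mice, by 5.16 ± 1.61 percentage points (SD). Mitochondrially encoded genes (0.811% to 2.15%), processed pseudogenes (0.251% to 0.490%) and small RNA genes (0.00827% to 0.0377%) also rose in 7 of 7 mice. No p-value is given for these rises, because low counts in the first table were part of the choice of this comparison. Without the 10 largest genes of each library the mitochondrial rise was 0.177 percentage points in place of 1.34. Replication-dependent histone genes, whose messages lack a polyA tail, took 0.0104% in the first and 0.00990% in the second table. The two-sided exact sign-flip permutation p over the 7 mice was 0.656.

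**Figure D1:**
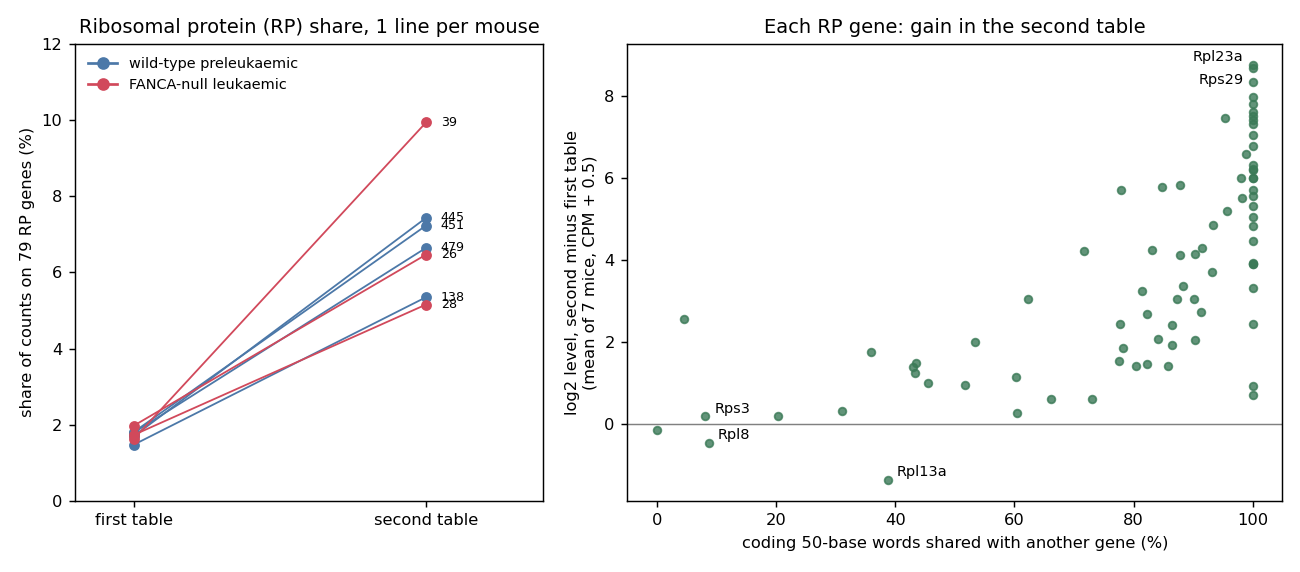
Left, the share of counts on the 79 cytosolic ribosomal protein (RP) genes in % in the first and the second table, 1 line per mouse, blue for wild-type preleukaemic and red for FANCA-null leukaemic mice. Right, each RP gene by the percentage of its coding 50-base words found in another gene (x axis) and by its log2 level in the second minus the first table (y axis, mean of 7 mice of log2(CPM + 0.5)). All 7 lines rise, and the genes on the right edge reach 8.76.

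Rps29 had 370, 789, 659 and 426 CPM in preleukemic_138, preleukemic_445, preleukemic_451 and preleukemic_479 of the second table, and 369, 294 and 241 CPM in leukemic_26, leukemic_28 and leukemic_39. Its counts in the first table were 19, 17, 20, 3, 29, 17 and 30 in the same order of mice. Every mouse was thus high in one table and near 0 in the other. On the log2(CPM + 0.5) scale the difference was 8.68 ± 0.75 (SD, n = 7). Rpl23a, a large subunit protein, had the largest difference, 8.76 ± 0.36, with 558 to 825 CPM in the second table against 23 to 72 counts in the first. Rps6, the subunit phosphorylated downstream of growth signals, gained 8.35 ± 0.66 and Rpl38 gained 7.80 ± 0.36. For each of these genes, 100% of the coding words were shared.

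At the other end, Rps3 had 1336 to 3406 CPM in the second table and differed from the first by 0.19 ± 0.49 (SD, n = 7), a difference within the spread between mice. Of its coding words 8.09% were shared. Rpl4, with 20.3% of its words shared, differed by 0.19 ± 0.17, and Rpl8 with 8.73% by -0.45 ± 0.36. Rpl13a, with 38.8% of its words shared, had the lowest value, -1.36 ± 0.44. Over all 79 genes the median difference was 3.71, 72 genes were higher in the second table in every mouse, 55 were at least 4-fold and 36 at least 16-fold higher, and 3 were lower. The least counted of the 79 in the second table was Rpl24, with 745 counts over the 7 mice, and it had 70 in the first.

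The difference between the tables followed the shared words. The 40 ribosomal protein genes with more than 90% shared words had a median difference of 5.64, the 26 with 50% to 90% a median of 2.24 and the 8 with 10% to 50% a median of 1.13. Spearman's rho was 0.792 over 78 genes, a description over genes that share libraries and paralogous sequence. Among other protein-coding genes the same bins had medians of 1.96 (135 genes), 0.91 (326 genes) and 0.08 (647 genes), and the 8844 genes with no shared word a median of -0.20. Actg1, encoding cytoplasmic actin, had 146 to 325 CPM in the second table against 9 to 31 counts in the first, a difference of 7.53 ± 0.48. Gapdh, a glycolytic enzyme used as a loading control in many assays, gained 7.17 ± 0.43, Tpt1 6.20 ± 0.49, Sumo2 5.95 ± 0.52, Cks2, a subunit that binds cyclin-dependent kinases, 5.50 ± 0.38, and Ppia, a prolyl isomerase, 5.02 ± 0.29. How reads with several matches were counted in each table is not given in the sources used here, and its part in the difference was not tested.

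Among mitochondrially encoded genes, mt-Co1, a subunit of cytochrome c oxidase, had 473053 to 1464755 counts in the second table and 28640 to 116733 in the first. The 3 genes mt-Co2, mt-Co3 and mt-Atp6, encoding the other oxidase subunits and a subunit of ATP synthase, stayed poorly counted in the second table, with 27 to 146, 45 to 326 and 13 to 78 counts. Mouse leukemic_28 was the only one with a first-table count of mt-Co2, and it had 1. The words of mt-Co2 and mt-Atp6 were shared at 100% and those of mt-Co3 at 99.9%. Levels of these 3 genes are therefore uncertain in either table.

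No ribosomal protein gene was called between TgSpi1FA-/- leukaemic and TgSpi1FA+/+ preleukaemic blasts in the second table. A gene was called where edgeR's quasi-likelihood test gave a Benjamini-Hochberg adjusted p under 0.05 and the fold change was at least 1.5. Of the 79 genes, 43 were higher and 36 lower, 0 were called, and the median log2 fold change was 0.01, beside 0.02 over all genes tested and 1.59% of genes called. By edgeR's quasi-likelihood test 1 of the 79 had an unadjusted p under 0.05, beside 18.6% of all genes tested. DESeq2's Wald test over the same genes tested, which is the DESeq2 fit given for the other lists too, called 0 of 79. Rps29 had the lowest value, -0.89 (SE 0.32, Benjamini-Hochberg adjusted p = 0.205), and Rps14 the highest, 0.72 (adjusted p = 0.475). As a share of counts the 79 genes took 6.67% ± 0.939 (SD, n = 4) in the wild-type preleukaemic mice, against 7.19% ± 2.47 (SD, n = 3) for the FANCA-null leukaemic mice, with an exact permutation p of 0.8. The large spread among leukaemic mice came with leukemic_39, which had both the highest share and the lowest depth. The first table gave the same genes values from -2.67 (Rps2) to 0.99 (Rps23) and called 1, Rpl27a. None of the 21 tested translation factors and none of the 36 ribosome biogenesis genes was called in the second table, with medians of 0.02 and -0.02, and 1 gene of each of these lists had an unadjusted p under 0.05.

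Of 16799 genes tested, 267 were called (1.59%), 226 higher (1.35%) and 41 lower (0.244%) in the leukaemic mice. At an unadjusted p under 0.05 there were 3119 (18.6%). The count depended on single mice: it was 38 without preleukemic_445, 25 without preleukemic_479, 5 without leukemic_28 and 60 without leukemic_39, and 864 without leukemic_26. With preleukemic_445 and preleukemic_479 summed to 1 replicate it was 59. For the same 7 mice 635 of 13054 genes (4.86%) were called in the first table, 357 higher (2.73%) and 278 lower (2.13%). With the nearly identical preleukemic_445 and preleukemic_479 of that table summed to 1 replicate, 21 were called, and 19 and 17 were called without the one or the other. Both tables called 117 genes, all 117 in the same direction, which is 43.8% of the calls of the second table and 18.4% of those of the first. The tables hold the same mice, so a shared call is no independent replicate.

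**Figure D2:**
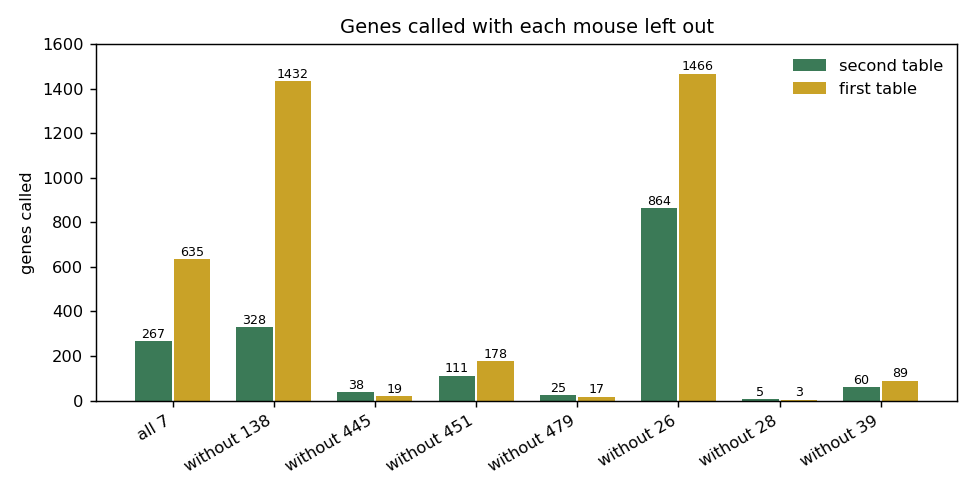
Number of genes called (y axis) with all 7 mice and with each mouse left out (x axis), 1 bar for the second and 1 for the first table. The second-table bars stand at 267 for all mice, at 5 without leukemic_28 and at 864 without leukemic_26.

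Fanca had 158, 55.6, 97.9 and 62.1 CPM in the preleukaemic mice preleukemic_138, preleukemic_445, preleukemic_451 and preleukemic_479, and 1.93, 1.72 and 2.02 CPM in the leukaemic mice leukemic_26, leukemic_28 and leukemic_39. The groups lay far apart, as their genotypes state. The log2 fold change was -5.63 (SE 0.48, edgeR adjusted p = 0.00931), and the adjusted p was 0.0576 without leukemic_28. The first table gave -5.37 (adjusted p = 0.0112). The residual reads in TgSpi1FA-/- mice were not placed along the gene here. Spi1 itself, the gene of the transgene, had 217, 801, 569 and 261 CPM in preleukaemic mice against 432, 217 and 4.67 CPM in leukaemic mice. Mouse leukemic_39, with 171 counts, stood apart from the 6 others, also in the first table, where it had 153 counts. The groups overlapped, and the log2 fold change of -1.08 (SE 1.11, adjusted p = 0.631) was not called. Besides Fanca, none of the 25 tested genes of the Fanconi anaemia pathway was called. The list had a median of -0.37 with 19 genes lower, and Fancd2, the protein that the core complex ubiquitylates, had -0.80 (SE 0.30, adjusted p = 0.214).

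The genes with the largest increases were at or near 0 in every preleukaemic mouse and counted in all 3 leukaemic mice. Igf2bp1, a fetal RNA-binding protein, had 0.0569 to 0.214 CPM against 70.4, 302 and 193 CPM, a log2 fold change of 10.37 (SE 0.72, adjusted p = 0.00475). It was among the 5 genes called in each of the 7 fits that left out 1 mouse, with Zyx, a focal adhesion protein (8.37, SE 0.61), Scamp1, a membrane trafficking protein (8.54, SE 0.70), and Ifitm1, an interferon-induced membrane protein (8.70, SE 0.80). A further 11 genes, Fanca among them, were called in 6 of those 7 fits.

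Fabp5, a fatty acid carrier, had 2 to 5 counts in the preleukaemic mice and 13.3, 47.7 and 155 CPM in leukemic_26, leukemic_28 and leukemic_39, a difference of 10.96 (SE 1.04, adjusted p = 0.0105). The homeobox gene Six4 had 3 counts in all preleukaemic mice together and 87, 1538 and 884 counts in leukaemic mice, a ratio of 1600 with a 95% counting interval of 548 to 7760. Tspan6, a tetraspanin, had 2 preleukaemic counts and a ratio of 3820 (1057 to 31543). For Fam92a, Tmtc2, Bcam, the Lutheran blood group glycoprotein, and the zinc finger gene Zfp467 the ratios were 2515 (696 to 20763), 2509 (858 to 12165), 1531 (275 to 60457) and 1856 (333 to 73318). Such ratios rest on 1 to 3 preleukaemic counts, and their intervals cover counting error only. The first table gave smaller differences for Tspan6, with 0 to 15 preleukaemic counts (6.34, adjusted p = 0.0359), and for Bcam, with 42 counts in preleukemic_138 against 44, 196 and 546 in the leukaemic mice (4.46, adjusted p = 0.193). Glt28d2 had 0 counts in all 4 preleukaemic mice and 149, 168 and 115 counts in the leukaemic mice, at least 233-fold higher against a floor of 3 counts over the group. In the first table it had 11 counts in preleukemic_445 and in preleukemic_479 against 94, 62 and 83, and was not called (3.57, adjusted p = 0.125). In Six4, Fam92a and Tmtc2 mouse leukemic_26 stood below the other 2 leukaemic mice, with 87, 24 and 38 counts, though still above all preleukaemic mice. The rule that chose the largest increases required groups that did not overlap, which holds in this direction for 10.5% of all genes tested.

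Fewer genes were repressed. Sphk1, the kinase that makes sphingosine 1-phosphate, had 501, 312, 1998 and 267 CPM in preleukaemic and 42.6, 22.7 and 18.7 CPM in leukaemic mice. It fell by 4.78 on the log2 scale (SE 0.89, adjusted p = 0.0474). Cela1, an elastase, fell by 4.34 (SE 0.48, adjusted p = 0.0121) from 90.4 to 140 CPM down to 2.29 to 7.77 CPM, and stayed called in 6 of the 7 fits that left out a mouse. Fcho1, which starts clathrin-coated pits, fell by 4.23, Folr1, a folate receptor, by 5.68, Cda, cytidine deaminase, by 6.05, and Efemp1, a matrix protein, by 7.79, with adjusted p of 0.0307, 0.0211, 0.0236 and 0.0238. The potassium channel subunit Kcng3 fell by 4.84 (adjusted p = 0.046). By the rule that chose them to be named, no leukaemic mouse reached the lowest preleukaemic mouse in these 7 genes, which holds for 8.07% of all genes tested. In the first table only Cela1 and Fcho1 of the 7 were called, and the adjusted p of Sphk1, Folr1, Cda, Efemp1 and Kcng3 was 0.0988, 0.272, 0.0744, 0.0677 and 0.162. Folr1 had 0 counts there in preleukemic_445 and preleukemic_479, so that its groups overlapped. Of the 43 called genes that met the naming rules, 9 stayed called without preleukemic_445, 6 without preleukemic_479, 11 without leukemic_39 and 2 without leukemic_28, and 41 without leukemic_26.

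**Figure D3:**
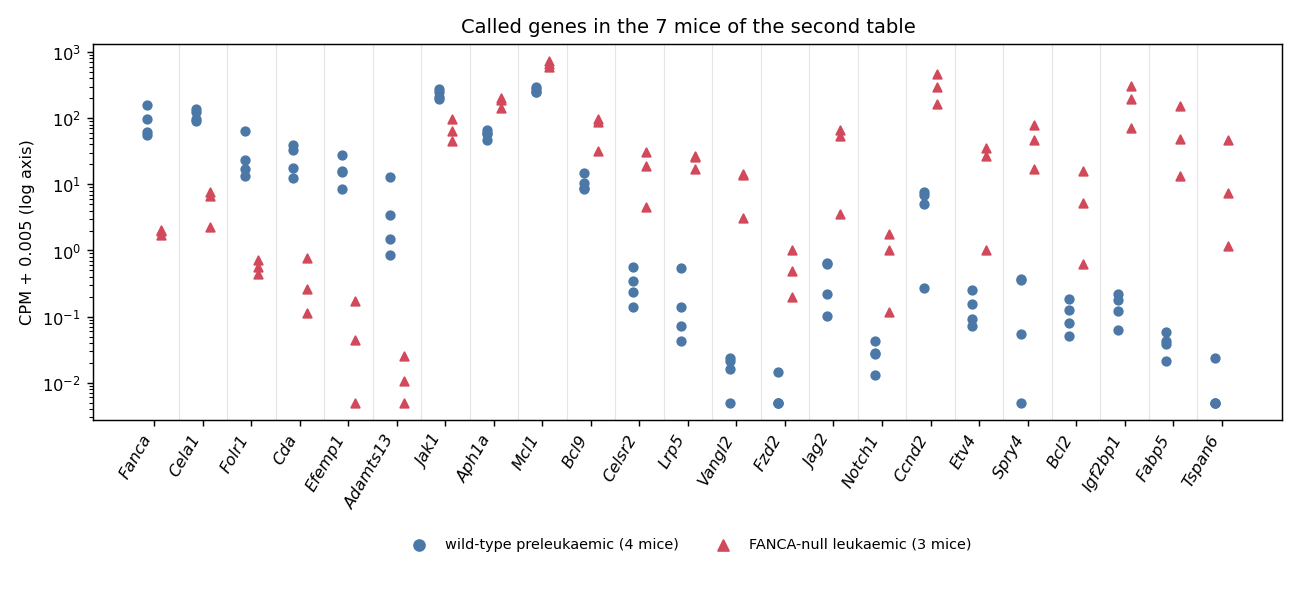
Level of named called genes in each mouse on a log axis (CPM + 0.005), blue circles for the 4 wild-type preleukaemic and red triangles for the 3 FANCA-null leukaemic mice. The circles and triangles of Fanca lie at 55.6 to 158 and 1.72 to 2.02 CPM, and those of Igf2bp1 at 0.0569 to 0.214 and 70.4 to 302 CPM.

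WNT signalling held 5 called genes, all higher in leukaemic mice. WNT ligands bind a Frizzled receptor with LRP5 or LRP6 and so spare beta-catenin from destruction, while VANGL2 and the CELSR cadherins carry the planar polarity branch. Of the 84 genes of the list 42 passed the filter, 25 were higher and 17 lower, 5 were called (beside 1.59% of all genes tested) and the median was 0.37, beside 0.02 over all genes. DESeq2 called 10 higher and 3 lower, and in the first table edgeR called 7 higher and 1 lower. Vangl2 (chr1:172000960-172028444) had 2, 0, 1 and 2 counts in preleukaemic mice and 541, 2099 and 502 counts in leukaemic mice, a difference of 9.64 (SE 1.0, adjusted p = 0.0121). The co-receptor Lrp5 (chr19:3584828-3686564) had 0.0372, 0.137, 0.544 and 0.0659 CPM against 16.8, 26.1 and 27.3 CPM, a difference of 6.90 (SE 1.01, adjusted p = 0.0237). In both genes all 3 leukaemic mice were above all preleukaemic mice, as in 10.5% of all genes tested. Celsr2 rose by 5.82 (SE 0.82, adjusted p = 0.0236), from 0.137 to 0.558 CPM up to 4.53, 30.5 and 18.7 CPM. Bcl9, a nuclear partner of beta-catenin, rose by 2.76 (SE 0.43, adjusted p = 0.0275), from 8.43 to 14.9 CPM up to 31.5, 88.0 and 96.8 CPM. The receptor Fzd2 had 1 preleukaemic count in all and 34, 70 and 37 leukaemic counts (ratio 230, 41.2 to 9069, adjusted p = 0.025).

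The other members of the list did not pass the threshold. Rnf43, a ligase that removes Frizzled receptors, had 39.2, 33.9, 50.2 and 20.8 CPM in preleukaemic and 11.1, 5.79 and 8.44 CPM in leukaemic mice (-2.09, SE 0.40, adjusted p = 0.0503). The transcription factor gene Tcf7 had 0.0114 to 0.223 CPM and 0.543, 23.4 and 13.2 CPM (6.90, SE 1.39, adjusted p = 0.0561). Of the ligands only 3 of 21 passed the filter, and none was called. With 1 mouse left out the WNT list held 0 called genes without leukemic_28 or preleukemic_479, 1 without preleukemic_445, 2 without preleukemic_451 or leukemic_39, and 8 higher and 2 lower without leukemic_26.

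In NOTCH signalling, where ligands of a neighbouring cell release the intracellular part of the receptor through gamma-secretase, 36 of 41 genes passed the filter and 3 were called, all higher, beside 1.59% of all genes. DESeq2 called 5 higher and 1 lower, and in the first table edgeR called 2 higher and 1 lower. The median of the list was -0.21, with 14 genes higher and 22 lower. Aph1a, a gamma-secretase subunit, had 46.4, 56.8, 67.3 and 58.9 CPM in preleukaemic and 190, 200 and 144 CPM in leukaemic mice. It rose by 1.63 (SE 0.21, adjusted p = 0.02). The ligand Jag2 rose by 6.70 (SE 1.13, adjusted p = 0.0339), from at most 0.642 CPM to 3.54, 54.2 and 65.4 CPM. The receptor Notch1 had 4, 2, 2 and 1 counts in preleukaemic mice and 20, 253 and 37 in leukaemic mice (5.35, SE 1.0, adjusted p = 0.0474). In leukemic_26 its level was 0.113 CPM, nearer to the preleukaemic mice (0.00824 to 0.0372 CPM) than to leukemic_28 (1.74 CPM). Jag1 had 0 to 7 against 78, 53 and 62 counts and was not called (4.52, SE 1.07, adjusted p = 0.0853). None of the 3 called genes was called without leukemic_28, preleukemic_445 or preleukemic_479.

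In the RAS-MAPK list, 36 of 38 genes passed the filter, 2 were called, both higher, beside 1.59% of all genes, and the median was 0.07. DESeq2 called 8, all higher, and in the first table edgeR called 4 higher and 1 lower. The list held 7 called genes without leukemic_26 and 0 without preleukemic_445, preleukemic_451, preleukemic_479, leukemic_28 or leukemic_39. Spry4, a feedback inhibitor of receptor tyrosine kinase signalling, had 0 to 0.363 CPM in preleukaemic and 16.9, 46.9 and 79.6 CPM in leukaemic mice (7.97, SE 1.35, adjusted p = 0.0337). Etv4, an ETS factor that follows ERK activity, had 0.0683 to 0.247 CPM against 1.02, 26.9 and 35.3 CPM (7.23, SE 1.19, adjusted p = 0.0314). In both genes leukemic_26 was the lowest leukaemic mouse. Nras, a RAS GTPase, had 177, 155, 148 and 213 CPM in preleukaemic mice, 182 CPM in leukemic_26, and 903 and 823 CPM in leukemic_28 and leukemic_39. The groups overlapped and it was not called (1.88, SE 0.49, adjusted p = 0.11).

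EPO signals in erythroid cells through JAK2 and STAT5. Of 25 genes of the EPO, JAK and STAT5 list, all tested, 1 was called, beside 1.59% of all genes, and the median was -0.26. Jak1, a kinase of cytokine receptors, fell by 1.76 (SE 0.31, adjusted p = 0.0373), from 197, 281, 250 and 207 CPM to 98.7, 63.1 and 44.8 CPM. The call was lost without preleukemic_445, preleukemic_451, preleukemic_479, leukemic_28 or leukemic_39 (adjusted p from 0.0671 to 0.154). Kit, the stem cell factor receptor, ranged from 13.9 CPM in preleukemic_445 to 260 CPM in preleukemic_138 among preleukaemic mice and had 866, 235 and 160 CPM in leukaemic mice (1.65, SE 0.93, adjusted p = 0.379).

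Survival and cell cycle genes held 3 called genes. Mcl1, a BCL2 relative that restrains mitochondrial cell death, had 246, 276, 296 and 246 CPM in preleukaemic and 730, 650 and 589 CPM in leukaemic mice, and rose by 1.30 (SE 0.19, adjusted p = 0.0236). Bcl2 rose by 6.06 (SE 1.11, adjusted p = 0.0444), from 0.0455 to 0.181 CPM up to 0.61, 15.6 and 5.30 CPM. These were 2 of 14 tested genes of the BCL2 family, beside 1.59% of all genes tested, and the median of the family was 0.12. Without preleukemic_445 the adjusted p was 0.0811 for Mcl1 and 0.112 for Bcl2, and without leukemic_28 it was 0.0988 and 0.138. Ccnd2, a D cyclin, had 6.86, 0.262, 5.10 and 7.62 CPM against 166, 467 and 299 CPM (5.97, SE 0.99, adjusted p = 0.0325). It was the 1 gene called of 15 tested for cell cycle entry, beside 1.59% of all genes tested. Ccnd2 stayed called without preleukemic_445 (adjusted p = 0.0157) or leukemic_26 (0.0247). Its call was lost without preleukemic_138, preleukemic_451, preleukemic_479, leukemic_28 or leukemic_39 (adjusted p from 0.0530 to 0.114). The tables differed for Bcl2 and Ccnd2 in the preleukaemic mice. Bcl2 had 371 and 348 counts in preleukemic_445 and preleukemic_479 of the first table and 4 and 22 in the second. Ccnd2 had 4277, 6479 and 4214 counts in preleukemic_138, preleukemic_445 and preleukemic_479 of the first table, and 738, 23 and 925 in the deeper second table. Neither was called in the first table, where the values were 0.69 and 1.78 (adjusted p of 0.792 and 0.173).

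The p53 list, 28 of 34 genes tested, held 0 called genes and a median of -0.16, where DESeq2 called 3. At an unadjusted p under 0.05 there were 5, beside 18.6% of all genes tested. Mdm4, which restrains p53, had 262, 666, 210 and 273 CPM in preleukaemic and 361, 282 and 572 CPM in leukaemic mice, a difference of 0.20 (SE 0.45, adjusted p = 0.842). For the same mice the first table gave it 1.30 and called it (adjusted p = 0.0335). Its counts there were 2562 to 3319 in the 4 preleukaemic mice, whereas preleukemic_445 of the second table, with 58536, stood apart from its group. Over the fits that left out 1 mouse the value in the second table ran from -0.13 to 0.70. Trp53inp1, a p53-induced gene, had 54.4 CPM ± 33.1 (SD, n = 4) in the wild-type preleukaemic mice, against 5.85 CPM ± 0.827 (SD, n = 3) for the FANCA-null leukaemic mice (-3.22, SE 0.67, adjusted p = 0.0591).

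Genes of red cell maturation lay lower in leukaemic mice without passing the threshold. Of 50 tested genes 44 were lower, and the median was -0.60 beside 0.02 over all genes. Of the 50, 14 had an unadjusted p under 0.05, beside 18.6% of all genes tested, and 0 were called. DESeq2 called 8 of them, 7 lower and 1 higher. Gfi1b, a repressor needed for erythroid development, had 287 CPM ± 68.2 (SD, n = 4) in preleukaemic mice against 117, 142 and 89.1 CPM (-1.31, SE 0.27, adjusted p = 0.0585). Klf1, an activator of adult globin genes, had 118 to 180 CPM in preleukaemic mice and at most 76.5 CPM in leukaemic mice (-1.34, SE 0.37, adjusted p = 0.127). For both genes, chosen after their values were seen, the groups did not overlap, which holds in this direction for 8.07% of all genes. The adult globin Hbb-bt had 443, 2025, 506 and 1378 CPM against 31.6, 33.8 and 1.20 CPM (-5.61, SE 1.23, adjusted p = 0.0693), while the embryonic globin Hbb-bh1 had at most 4.75 CPM in preleukaemic mice and 9.87, 1411 and 2524 CPM in leukaemic mice (9.69, SE 1.92, adjusted p = 0.0539). In bulk libraries fewer cells of a type and less RNA per cell cannot be told apart.

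**Figure D4:**
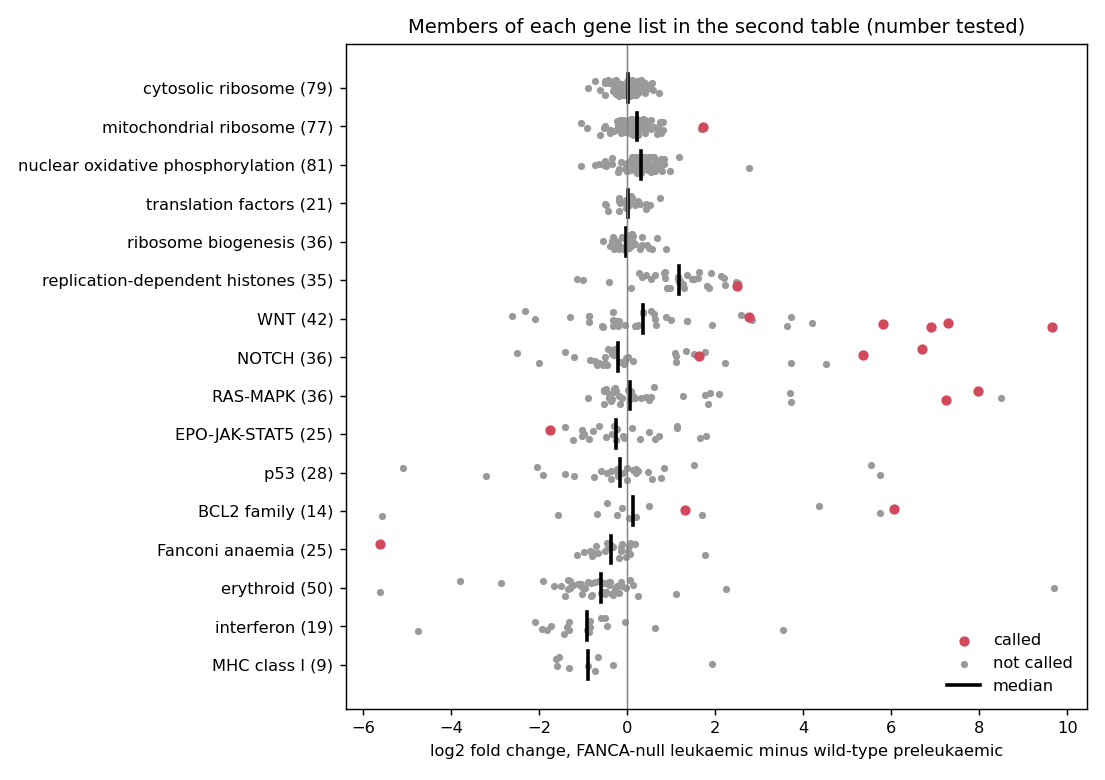
Log2 fold change, FANCA-null leukaemic minus wild-type preleukaemic (x axis), of every tested member of each gene list (rows, number tested in brackets). Red points are called, grey points are not, and the black bar is the median, at 0.01 for the cytosolic ribosome, -0.60 for erythroid genes and 1.17 for replication-dependent histones.

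Interferon-stimulated genes (19 tested, 17 lower, median -0.92) and MHC class I presentation genes (9 tested, 8 lower, median -0.88) also lay lower with 0 called in either list, and DESeq2 called 1 and 0. At an unadjusted p under 0.05 there were 6 and 2, beside 18.6% of all genes tested. Without leukemic_26 the medians were -2.42, with 1 interferon gene called lower, and -1.38, and the first table gave the interferon list -1.75 with 1 called lower. The lower direction was not general, because Ifitm1, an interferon-induced gene outside these lists, was called higher (8.70, SE 0.80, adjusted p = 0.0105). Tap2, a peptide transporter, had 51.4, 130, 115 and 47.4 CPM in preleukaemic and 46.0, 27.7 and 29.7 CPM in leukaemic mice (-1.31, SE 0.43, adjusted p = 0.174). The preleukaemic mice differed among themselves here: Oasl2, an interferon-induced gene, had 112 CPM in preleukemic_138 and 2.05 to 5.49 CPM in preleukemic_445, preleukemic_451 and preleukemic_479.

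Mitochondrial ribosome genes and nuclear oxidative phosphorylation genes lay slightly higher. Of 77 tested mitochondrial ribosome genes 57 were higher, the median was 0.22 and 1 was called, beside 1.59% of all genes tested. Mrps21, a small subunit protein, had 48.5, 50.6, 41.8 and 52.4 CPM against 145, 148 and 183 CPM, and rose by 1.71 (SE 0.18, adjusted p = 0.0121). Its adjusted p was 0.0542 without preleukemic_445 and 0.0705 without leukemic_28. Of 81 oxidative phosphorylation genes 63 were higher, the median was 0.31, 9 had an unadjusted p under 0.05, 0 were called by edgeR and 2 by DESeq2. Both medians depended on leukemic_39, which has the smallest library: without it they were 0.01 and 0.03. Lists for glycolysis (16 tested, median 0.45, and -0.07 without leukemic_39), DNA replication (31 tested, median -0.25), cholesterol synthesis (22 tested, median -0.12), the MYC network (11 tested, median -0.20) and PU.1 targets (15 tested, median -0.07) held 0 called genes, with 3, 5, 3, 3 and 1 at an unadjusted p under 0.05, and DESeq2 called 1, 0, 2, 1 and 1. Over all genes tested, 18.6% had an unadjusted p under 0.05. Of 23 HOX genes 2 passed the filter, and neither was called by edgeR or DESeq2.

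Replication-dependent histone genes were higher in 32 of 35 tested members, with a median of 1.17. At an unadjusted p under 0.05 there were 12, beside 18.6% of all genes tested. Of the 35 tested, 1 was called, beside 1.59% of all genes tested. This gene, Hist2h2be, had 25.2, 15.3, 12.2 and 9.36 CPM in preleukaemic and 71.2, 64.1 and 127 CPM in leukaemic mice (2.50, SE 0.41, adjusted p = 0.0309). Its adjusted p was 0.0918 without preleukemic_445 and 0.0988 without leukemic_28. As a class these genes took 0.00501% ± 0.00177 (SD, n = 4) of the counts of preleukaemic mice and 0.0164% ± 0.00437 (SD, n = 3) of those of leukaemic mice. The groups did not overlap, and the exact permutation p was 0.0571, the smallest that 3 against 4 mice allow. The libraries were selected for polyA RNA, so these values count only the polyadenylated part of histone messages.

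The second table put 4019 genes past the filter on low counts that did not pass it in the first table, and 274 passed in the first table alone. The 4019 comprised 1196 protein-coding genes, 1079 processed pseudogenes, 813 long non-coding RNAs, 558 loci of the GENCODE class TEC, whose transcripts await experimental proof, and 280 small RNA genes, and 165 of the 4019 were not listed in the first table at all. The protein-coding ones were low: their median over the 7 mice was 0.258 CPM beside 31.2 CPM for protein-coding genes that passed in both tables, and 154 of 1196 had a mean of at least 1 CPM. With both tables thinned to equal totals the number was 1697, and with at least 1 CPM in 3 libraries it was 1089. Of the protein-coding genes among the latter, 56 of 389 (14.4%) had more than 50% of their words shared, against 460 of 10043 (4.58%) of those measured in both. Of the 4019 genes, 893 were highest in leukemic_39 and 880 in leukemic_26, against 364 to 537 in each other mouse.

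Of the newly measured genes 45 were called, 40 of them higher. Among the 1196 protein-coding ones 29 were called (2.42%), 26 higher and 3 lower, beside 1.59% over all genes tested. A low gene passes the filter only through the group where it is higher, so this count describes the genes and is no support for a direction. The newly measured called genes described next all lost their call without preleukemic_445, with adjusted p from 0.0676 for Zfp467 to 0.127 for Mybpc3. Mybpc3, a sarcomere protein gene that lies next to Spi1 (chr2:91118144-91136516), had 10, 3, 4 and 3 counts in preleukaemic mice and 16, 11650 and 2977 counts in leukemic_26, leukemic_28 and leukemic_39 (10.07, SE 1.91, adjusted p = 0.0492). In CPM leukemic_26 (0.0904) lay within the preleukaemic range (0.0247 to 0.093), so the groups overlapped and the call rested on 2 mice. Hhip, a Hedgehog-binding protein, had 2 preleukaemic counts and 21, 1314 and 190 leukaemic counts (ratio 979, 271 to 8081), and Kcnj5, a potassium channel, 2 preleukaemic counts and 0.17, 2.91 and 12.3 CPM in leukaemic mice (ratio 1049, 290 to 8660). Arfgef3 had 0 counts in all preleukaemic mice and 42, 97 and 40 in leukaemic mice, at least 90.8-fold higher against 3 counts over the group.

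Among newly measured protein-coding genes 3 were repressed. Adamts13, the protease that cleaves von Willebrand factor, had 90, 298, 1184 and 182 counts in preleukaemic and 1, 3 and 0 counts in leukaemic mice (-8.62, SE 1.51, adjusted p = 0.0383). Its first-table counts were 194 in preleukemic_451 and 0 in the 6 others. Tnfsf13, the cytokine APRIL, had 122, 83, 37 and 87 counts against 3, 0 and 0, a ratio of 95.6 (32.7 to 463). Gm4724, a predicted gene that the first table did not list, had 21, 9, 10 and 15 counts against 0 in all leukaemic mice, at least 15.8-fold lower in leukaemic mice against 3 counts over the group.

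**Figure D5:**
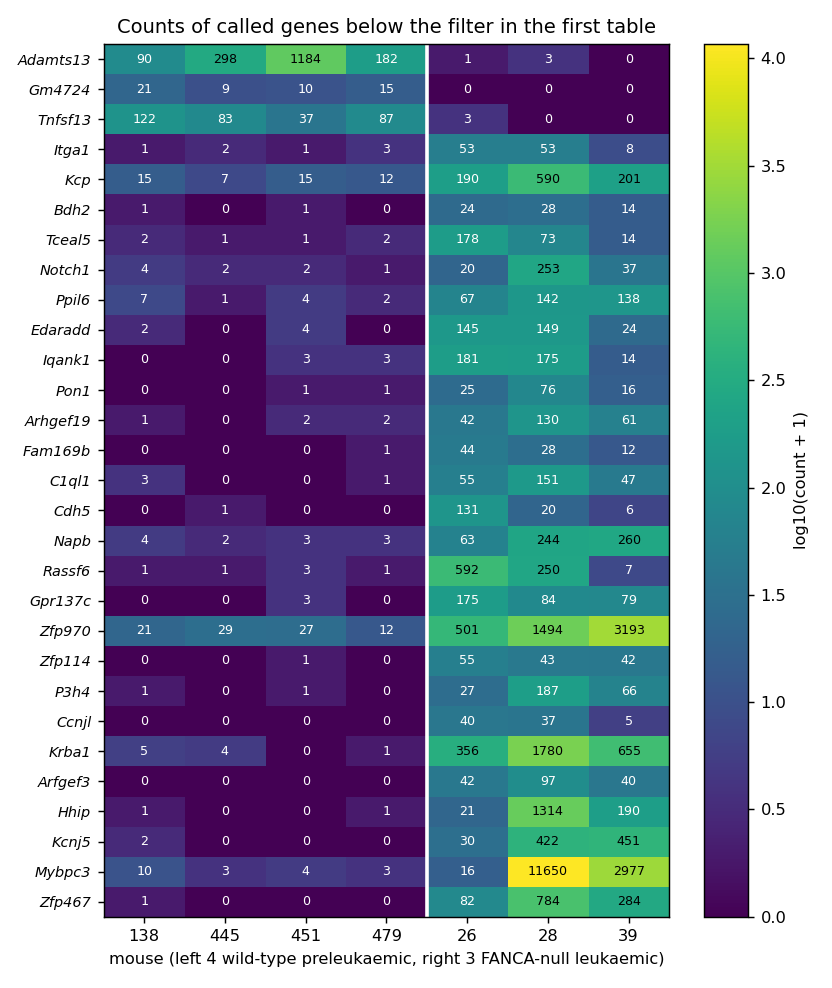
Counts of called protein-coding genes (rows) that were below the filter in the first table, in each mouse of the second table (columns, the left 4 wild-type preleukaemic and the right 3 FANCA-null leukaemic), as colour on a log10(count + 1) scale. Rows such as Zfp467 hold 0 or 1 counts in the preleukaemic columns and 82, 784 and 284 in the leukaemic ones.

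The newly measured genes of highest level were mostly high in 1 or 2 mice. Grb10, an adaptor that binds insulin and growth factor receptors, had 626 and 148 CPM in leukemic_26 and leukemic_28, 0 counts in leukemic_39 and 0.359 to 5.30 CPM in preleukaemic mice (7.10, SE 2.18, adjusted p = 0.155). Fn1, fibronectin, had 186 CPM in leukemic_28, 8.47 in leukemic_39 and 0.0961 in leukemic_26, against at most 0.109 CPM in preleukaemic mice (9.69, SE 2.13, adjusted p = 0.0702). Tnni1, a troponin of slow muscle, had 214 CPM in leukemic_39, 4.50 in leukemic_28 and at most 0.153 in the 5 others. In the other direction, Tns1, a focal adhesion protein, had 4.24, 242, 64.6 and 15.4 CPM in preleukaemic and at most 0.393 CPM in leukaemic mice (-8.48, SE 1.72, adjusted p = 0.0573, and 0.0339 without preleukemic_138). Tmprss3, a membrane protease, had 2.26 to 176 CPM against at most 1.15 CPM (-6.37, SE 1.86, adjusted p = 0.14). Cacna1e, a calcium channel, had 0.214 to 117 CPM against at most 0.141 CPM (-8.73, SE 2.18, adjusted p = 0.102). In these 3 genes the groups did not overlap, as in 8.07% of all genes. None of the 6 was called. The 3 others were counted in every mouse: Pin4, a prolyl isomerase, had 21.5 to 36.4 CPM and at most 7 counts in any first-table library, BC005561, not listed in the first table, had 16.2 to 28.8 CPM in preleukaemic and 33.6 to 43.6 CPM in leukaemic mice without being called (0.77, adjusted p = 0.224), and Ndufs5, a subunit of respiratory complex I, had 10.3 to 22.5 CPM with 88 and 87 first-table counts in preleukemic_138 and preleukemic_451 and at most 8 in the others. Pin4 shares 99.4% of its coding words.

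Several pathway members became measurable without being called. Celsr3, a planar polarity cadherin, had 24, 0, 14 and 9 counts in preleukaemic and 32, 83 and 63 in leukaemic mice (2.84, SE 1.17, adjusted p = 0.251), and Notum, which removes a lipid from WNT ligands, had 5, 0, 7 and 2 against 29, 51 and 34 counts (3.72, SE 1.04, adjusted p = 0.128). Wnt10b, a ligand, had 42, 22, 21 and 43 against 82, 14 and 1 counts, with overlap. Mfng, which adds sugars to NOTCH receptors, had 1079 counts in preleukemic_445 and 1 to 109 in all other mice. The p53 target Plk2 likewise had 1034 counts in preleukemic_445 and 1 to 26 elsewhere, where the first table gave preleukemic_445 only 6. Among PU.1 targets, Cybb, the phagocyte oxidase subunit, had 0, 12, 17 and 61 counts against 2, 6 and 0, and Cebpa, a myeloid factor, had 256 counts in leukemic_28 and at most 26 in every other mouse.

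Markers of other cell types were low beside the erythroid ones but did not stay level between the groups. The 10 erythroid blast markers summed to 5385 to 7719 CPM in preleukaemic and 1796 to 5204 CPM in leukaemic mice. The 12 megakaryocyte markers summed to 66.3 to 267 against 322 to 699 CPM. Itga2b, the integrin of platelets and the largest of them, had 5.48 to 154 against 124 to 366 CPM. Of the 10 megakaryocyte markers tested, 6 were higher and 4 lower, and 0 were called. Their median was 0.62, and -0.28 in the first table. The 8 endothelial markers, of which 7 were listed, summed to 2.44 to 4.87 against 11.2 to 45.1 CPM, with Emcn at 0, and the 9 T cell markers, of which 7 were listed, to 0.876 to 1.87 against 2.61 to 7.02 CPM, with Cd4 and Cd8a at 0. Lck was the largest T cell marker, at 0.774 to 1.746 against 1.735 to 6.01 CPM, so its own groups overlapped. In the sums of these 4 lists the groups did not overlap, each with an exact permutation p of 0.0571, the smallest possible. Among single genes tested, the groups did not overlap in 10.5% with leukaemic mice higher and in 8.07% with leukaemic mice lower. Marker sums of macrophages, neutrophils, mast cells, B cells, NK cells and fibroblasts overlapped. Cdh5, the cadherin of endothelial cells, was called with 1 preleukaemic count against 131, 20 and 6 (ratio 142, 25.5 to 5607, adjusted p = 0.0407). With 1 mouse left out it stayed called only without leukemic_26 (adjusted p = 0.0443). Pdgfrb, a receptor of fibroblasts and pericytes, was called with 3 counts against 503, 189 and 17 (ratio 209, 71.6 to 1015, adjusted p = 0.0245). The first table did not call it (3.24, adjusted p = 0.0697). They were 1 of 5 endothelial and 1 of 3 fibroblast markers tested, beside 1.59% of all genes. Of the fibroblast markers 2 were higher and 1 lower, and the largest, Col1a2, had 0.0228 to 27.0 against 0.109 to 4.80 CPM. What part these markers have in the called genes was not tested.

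Some genes were counted in 1 library alone, with at least 10 counts there and 0 in the 6 others. There were 204 such genes in leukemic_26, 179 in preleukemic_138, 115 in leukemic_28, 73 in leukemic_39 and 15 to 45 in preleukemic_445, preleukemic_451 and preleukemic_479. In preleukemic_138, 141 of the 179 were protein coding. Genes seen there after the fact included several used in neurons: Gria1, a glutamate receptor subunit, had 61 counts in preleukemic_138, and Sncb, a synuclein, had 49, with 0 in every other mouse, and Snap25, a synaptic fusion protein, had 125 counts beside 0 to 2 elsewhere. The first table did not list Snap25 or Gria1, and gave Sncb 0 counts in preleukemic_138.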

How the data were processed

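The values used are raw counts per Ensembl gene, deposited by the authors as 1 column per mouse with no replicates pooled. The submitters' processing notes name bcl2fastq 2.17.1.14, STAR 2.5.3a, HTSeq 0.6.1p1 and GRCm38 (mm10). The annotation, the strand setting, the treatment of reads with several matches and what separates the 2 tables are not given in the sources used here. Each library took 400 ng of total RNA, which was fragmented for 8 min. The members and gene lists were chosen with earlier results of these data known.

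The 4 wild-type preleukaemic and 3 FANCA-null leukaemic mice were compared with edgeR 4.0.16 (R 4.3.3): filterByExpr, TMM scaling and the quasi-likelihood test, with Benjamini-Hochberg adjustment over all genes that passed. CPM were taken over TMM-scaled totals. Mice are separate animals. DESeq2 1.42.0 was an alternative. The same fit was made on the first table for the same mice. For single values a two-sided exact permutation test was run in scipy 1.17.1. Differences between tables are means over mice of log2(CPM + 0.5). Of the identifiers, 31570 (99.8%) were found in GENCODE M21, from which 50-base words of the longest coding sequence were matched to genes at other positions. Ratios for 1 to 3 counts have 95% counting intervals, and a group at 0 was set to 3 counts. Counting intervals cover counting error only. The scripts were tested on simulated data. With a spread between mice as in these libraries, edgeR called 0 of 100 genes changed 2-fold and 6 of 100 changed 4-fold. With a small simulated spread (dispersion 0.01) it called 91 and 100.

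Genes named were a preset group (Fanca, Spi1, Kit, Nras, Mdm4, Lrp5, Vangl2, Notch1, Jag1), the 10 largest increases and decreases among called genes with gene symbols, at least 10 mean counts and groups that did not overlap, the called members of each list (over 6, the 3 of smallest p each way), of the newly measured protein-coding genes the 10 of highest level and the 5 largest called changes each way, the 5 ribosomal protein genes at each end of the difference between tables, and list members whose sign differed between tables where either was called, of which there were none. List members named beside them were chosen for their small p or their role, after the values were seen. Some genes that met these rules are not reported here. Counts of the other model's mice were not used here.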

Additional observations from a re-analysis of the deposited data

Results flagged for a closer look

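Dixon's criterion sets about 1 in 20 groups apart by chance where values are normally spread, which does not hold for groups near 0. In 74 groups of 4 preleukaemic values, 7 had 1 mouse apart from the other 3 by this criterion. In 6 of these genes the other 3 mice were at 0, and 1 or 2 counts set the mouse apart: Bcam in preleukemic_479 (0.00824 CPM), Zfp467 (0.00930 CPM), Fzd2 (0.00930 CPM), Tspan6 (0.0186 CPM) and Kcnj5 (0.0186 CPM) in preleukemic_138, and Cdh5 in preleukemic_445 (0.0114 CPM). Ccnd2 in preleukemic_445, at 0.262 CPM, lay below 5.10 to 7.62 CPM in the other preleukaemic mice.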

How the results depend on the processing

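The number of genes called in the second table (267) kept most calls higher in leukaemic mice under every alternative but moved with the tool and the mice: DESeq2's Wald test called 1982 over all 31633 genes and 1711 over the 16799 that edgeR tested, no filter on low counts 538, the same mice of the first table gave 635, its 3-group fit with the FANCA-null preleukaemic mice 939, and preleukemic_445 and preleukemic_479 summed 59. Leaving out 1 mouse gave 5 to 864 in the second table (5 without leukemic_28, 25 without preleukemic_479, 38 without preleukemic_445, 60 without leukemic_39, 111 without preleukemic_451, 864 without leukemic_26) and 3 to 1466 in the first, where the pair summed gave 21. These fits of the first table and DESeq2 over edgeR's genes were chosen after seeing the data. Size factors of DESeq2, 1 CPM in 3 libraries, robust estimation, adjusted p alone, a test against 1.5-fold, thinning and leaving out ribosomal, mitochondrial and small RNA genes gave 184 to 276. The newly measured genes numbered 4019, 1089 at 1 CPM in 3 libraries, 1064 at a mean of 1 CPM and 1697 after thinning. The histone share, second minus first table, was -0.000476 percentage points, -0.00105 to 0.000144 with 1 mouse left out (0.000144 without leukemic_28). The cause was not tested. For called genes that met the naming rules 510 results kept their call over the alternatives and 257 lost it, and for the others 398 stayed uncalled and 25 became called. No paired analysis was possible because the groups share no mouse numbers. With 3 leukaemic mice, 1 of them shallow, a gene that missed the threshold is not shown to be equal between groups.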

Other observations

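Xist, the RNA that silences an X chromosome in female cells, had 350320 counts in preleukemic_138 and 10 to 693 in the 6 other mice of the second table (29379 and 0 to 3 in the first). The Y-linked gene Ddx3y had 106, 96.4 and 203 CPM in preleukemic_445, preleukemic_479 and leukemic_26 and 13.7 CPM in leukemic_28. It had 0.185 and 0.027 CPM in preleukemic_451 and leukemic_39, where Xist was also near 0, and 0.149 CPM in preleukemic_138. The labels give no sex.

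Whole chromosomes stood apart in single mice, measured as the median log2 difference of their genes from the mean of the preleukaemic mice, minus the same median over all genes. Chromosome 13 had -0.59 in preleukemic_451 (-0.53 in the first table), chromosome 19 had 0.45 in leukemic_26 (0.43), chromosome 1 had 0.46 in leukemic_28 (0.40) and 0.34 in leukemic_39 (0.20), chromosome 2 had 0.32 in leukemic_39 (0.31), and chromosome 3 had 0.48 in leukemic_39 (0.10). Mouse leukemic_39 also had 0.36 (0.18) on chromosome 13, -0.33 (-0.08) on chromosome 19 and -0.28 (-0.36) on chromosome 12. Chromosome 3 had -0.01 (0.06) in leukemic_26 and 0.20 (0.03) in leukemic_28. Called genes on chromosome 3 included Mcl1, Aph1a, Bcl9, Mrps21 and Hist2h2be, and on chromosome 1 Vangl2 and Bcl2. Those on chromosome 3 were named from different gene lists but are neighbours, from base 95658788 (start of Mcl1) to base 97297917 (end of Bcl9). Their calls are therefore not known to be independent of each other. The share of genes called on each chromosome is not given here, so these names show no excess on a chromosome. No copy number was measured, and the part of these shifts in the called genes was not tested.

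Spi1 and its neighbour Mybpc3 on chromosome 2 were at opposite levels in leukemic_39, with 171 counts of Spi1 and 2977 of Mybpc3. Mouse leukemic_28 had 31524 and 11650 counts, and leukemic_26 had 76512 and 16.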
